A study of Arabidopsis thaliana with 44 samples.

Results

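The comparison described here is the difference, shoots minus roots, in what mutation of 3 peptide receptor genes (called receptor loss here) did to gene expression in tpst-1 plants of Arabidopsis thaliana. It is the effect in shoots (tpst/psyr1,2,3 minus tpst-1) minus the effect in roots (tpst/psyr1,2,3 minus tpst-1), on the log2 scale, for every gene. The libraries were chosen by their genotype and tissue labels alone and are 14 of the 44 in the study: 4 of tpst/psyr1,2,3 shoots, 4 of tpst-1 shoots, 3 of tpst/psyr1,2,3 roots and 3 of tpst-1 roots. All came from plants labelled as 7 days old, all carry tpst-1, and the labels name no peptide treatment for these groups. The tpst/psyr1,2,3 plants are labelled as also mutant in PSYR1, PSYR2 and PSYR3. The labels name no separate lines of a genotype and do not say what separates replicates, so p-values measure the spread between libraries, which may be technical. That spread was estimated from all 29 root and shoot libraries of the study. The further ones are wild-type shoots, psyr1,2,3 shoots, and tpst-1 roots and shoots given 1 µM of the peptide PSY5.

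TPST encodes the tyrosylprotein sulfotransferase, which adds sulfate to tyrosines of small secreted peptides such as PSY, PSK, RGF and CIF, and these peptides need the sulfate for full activity. PSYR1, PSYR2 and PSYR3 are leucine-rich repeat receptor kinases for PSY peptides, known for acting when no peptide is bound, when they favour stress responses over growth. A tpst-1 plant is short of active PSY, so a comparison of tpst/psyr1,2,3 with tpst-1 asks which transcripts depend on the receptors in that state. The difference between the tissues asks whether that dependence is the same in shoots and roots.

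The files list 34262 genes. Shoot libraries held 9814774 to 16816553 reads and root libraries 3206526 to 3510474. Gene levels are given as CPM, the usual read counts scaled to a common library size, here corrected with TMM factors (a trimmed mean of ratios between libraries), and TPM is used only where genes are summed. Replicate 1 of tpst-1 shoots stood apart from its group. It had the most reads (16816553), and its median gene was shifted by -0.627 log2 units in TPM from the other 3. Its correlation with them was 0.926 to 0.937, while the highest correlation of each of those 3 within the group was 0.968 to 0.975. Replicate 4 of tpst-1 shoots carried root transcripts: 20 root hair genes summed to 3.37 to 4.70 TPM in tpst/psyr1,2,3 shoots, and in tpst-1 shoots to 27.8 TPM in replicate 4 and 1.796 to 2.98 TPM in replicates 1 to 3. The same genes summed to 752 to 830.3 TPM in tpst/psyr1,2,3 roots and 555 to 632 TPM in tpst-1 roots. The 40 nuclear photosynthesis genes summed to 106390.0 to 120900.0 TPM in tpst/psyr1,2,3 shoots and 118170.0 to 128200.0 TPM in tpst-1 shoots, against 486 to 736 TPM in tpst/psyr1,2,3 roots and 335 to 415 TPM in tpst-1 roots, so the defining markers of each labelled tissue were present.

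The targeted genes were measured first. PSYR1 was at 7.74, 6.43, 6.29 and 7.01 in tpst/psyr1,2,3 shoots, against 22.3, 33.7, 35.9 and 33.2 in tpst-1 shoots (log2 effect -2.18 ± 0.19, adjusted p = 3.86e-09). It was near the floor in roots, at 1.61, 1.63 and 1.09 in tpst/psyr1,2,3 roots, against 4.49, 3.53 and 3.27 in tpst-1 roots (-1.37 ± 0.42, adjusted p = 0.0735), and did not pass the expression filter there. In a fit of the genes that passed in either tissue its difference was -0.81 ± 0.49, adjusted p = 0.414. PSYR2 fell in shoots (-0.53 ± 0.19) and in roots (-1.43 ± 0.30), and the difference did not pass (0.90 ± 0.35, adjusted p = 0.128); replicate 1 of tpst-1 shoots, at 15.6 CPM, lay below all other shoot libraries. PSYR3 rose in both tissues: it was at 41.3, 60.2, 20.3 and 48.2 in tpst/psyr1,2,3 shoots, against 7.96, 21.2, 19.2 and 23.1 in tpst-1 shoots, and at 185, 207 and 196 in tpst/psyr1,2,3 roots, against 59.9, 66.2 and 67.6 in tpst-1 roots. Its shoot groups overlapped through replicate 3 of tpst/psyr1,2,3 and its root groups did not. Its log2 effect was 1.25 ± 0.23 in shoots and 1.60 ± 0.26 in roots, with a difference of -0.35 ± 0.35, adjusted p = 0.619. TPST, which all these plants carry as tpst-1, gave a difference of -0.02 ± 0.23, adjusted p = 0.975. A gene's total reads cannot tell a truncated transcript from a whole one, and samples were grouped by their labelled genotype.

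Of 17223 genes tested, 1319 (7.66%) passed for the difference between tissues at an adjusted p below 0.05 with edgeR's quasi-likelihood test. The effect was more negative in shoots for 900 of them (5.23%) and more positive in shoots for 419 (2.43%). Of these 900 and 419 genes, 527 and 149 differed by more than 2-fold. Within shoots 3816 genes passed (22.2%), of which 1576 rose (9.15%) and 2240 fell (13.0%). Within roots 672 passed (3.90%), of which 347 rose (2.01%) and 325 fell (1.89%). Roots are counted here with a spread shared by both tissues; the coefficient of variation between libraries was 0.169 in shoots alone, 0.0571 in roots alone and 0.152 jointly. With 1 variance weight per tissue (limma voom) the difference passed for 1192 genes on the negative side (6.92%) and 873 on the positive side (5.07%), and 1263 genes rose (7.33%) and 1021 fell (5.93%) in roots. Without replicate 1 of tpst-1 shoots 1633 genes passed (9.48%), 1041 on the negative side and 592 on the positive side, and 1062 passed in roots (6.17%). The count of differences was lowest without replicate 2 of tpst-1 roots (813 genes), replicate 2 of tpst/psyr1,2,3 roots (845) and replicate 1 of tpst-1 roots (872). On TPM that were not rescaled (limma on log2(TPM + 1)) the balance turned to 1921 positive and 382 negative, while the median difference of all genes moved to 0.337, against -0.02 here.

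The genes with a difference fell into 5 patterns. Both tissue effects passed with opposite signs for 96 genes, of which 83 fell in shoots and rose in roots, and 13 rose in shoots and fell in roots. For 31 genes both effects had the same sign and differed in size, 27 of them falls. The shoot effect passed alone for 815 genes (271 up and 544 down), the root effect alone for 226 (148 up and 78 down), and neither for 151. Without replicate 1 of tpst-1 shoots the opposite genes numbered 144 (120 and 24). Among all genes tested, 329 passed in both tissues, 233 with the same sign. Across genes the effects in the tissues were weakly related (Pearson r = 0.252, Spearman rho = 0.0992, n = 17223 genes, which are not independent and share the fit).

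**Figure D1:**
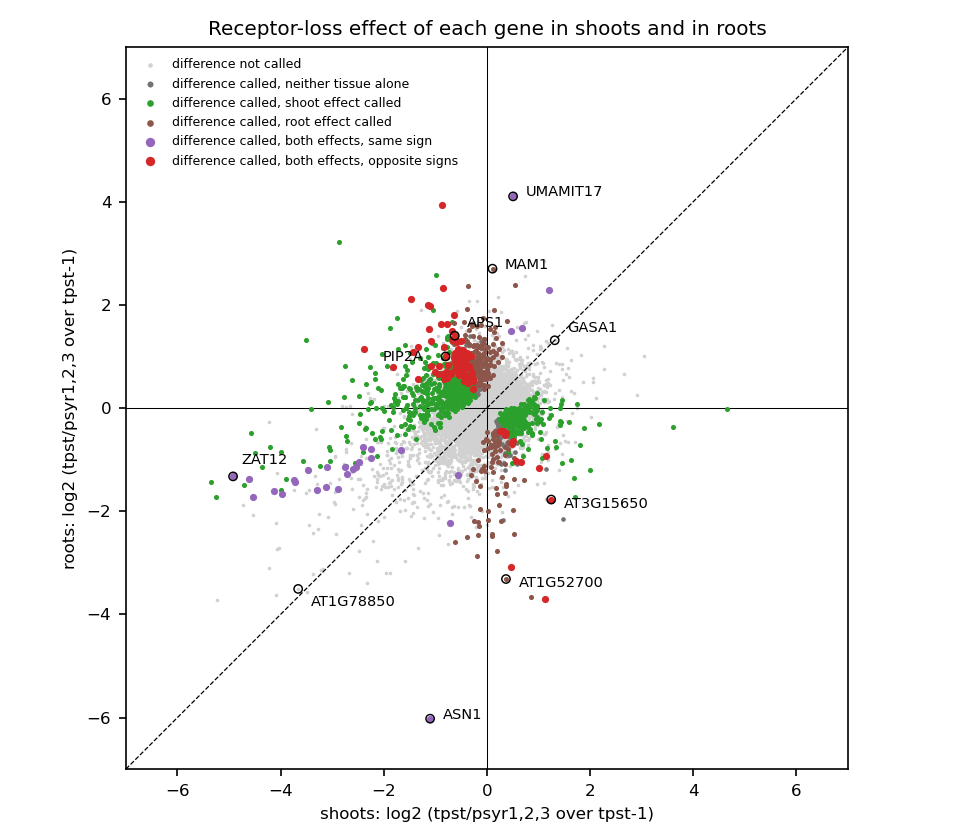
Log2 effect of receptor loss (tpst/psyr1,2,3 over tpst-1) in shoots (x axis) against roots (y axis), 1 point per gene, with genes that passed for the difference coloured by which tissue effects passed and the dashed line marking equal effects. Most opposite genes (red) lie at the upper left, for a fall in shoots and a rise in roots, the pattern of 83 genes, not all drawn. In all, 181 genes are left out because a group held 3 or fewer reads, TPPH and SCPL9 among them.

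Promoters of genes from the largest opposite group and from pathways described next are shown with the G-box and the TATA box, letters that were more frequent there. The sequences are the 250 bases before the annotated start, 5′ to 3′ on the gene's strand, from RefSeq TAIR10.1, and capitals mark CACGTG (G-box) and TATAAA on either strand.
TPPH promoter, chr4:18451306-18451555, minus strand: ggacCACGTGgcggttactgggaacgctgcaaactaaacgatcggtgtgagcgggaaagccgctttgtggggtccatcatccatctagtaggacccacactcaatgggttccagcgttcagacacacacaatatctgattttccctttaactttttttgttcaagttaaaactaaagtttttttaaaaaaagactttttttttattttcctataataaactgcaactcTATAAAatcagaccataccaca
LHY promoter, chr1:37872-38121, minus strand: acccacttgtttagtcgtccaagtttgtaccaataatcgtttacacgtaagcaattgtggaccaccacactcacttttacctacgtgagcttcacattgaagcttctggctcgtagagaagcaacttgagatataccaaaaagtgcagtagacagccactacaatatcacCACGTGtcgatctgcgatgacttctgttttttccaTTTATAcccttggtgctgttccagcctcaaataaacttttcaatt
CYP83A1 promoter, chr4:7992430-7992679, minus strand: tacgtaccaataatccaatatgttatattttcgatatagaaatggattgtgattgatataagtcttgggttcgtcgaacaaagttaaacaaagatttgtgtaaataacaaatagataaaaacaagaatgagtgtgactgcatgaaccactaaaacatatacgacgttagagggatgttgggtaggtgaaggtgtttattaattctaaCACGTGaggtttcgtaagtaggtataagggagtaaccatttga
APS1 promoter, chr3:8112364-8112613, plus strand: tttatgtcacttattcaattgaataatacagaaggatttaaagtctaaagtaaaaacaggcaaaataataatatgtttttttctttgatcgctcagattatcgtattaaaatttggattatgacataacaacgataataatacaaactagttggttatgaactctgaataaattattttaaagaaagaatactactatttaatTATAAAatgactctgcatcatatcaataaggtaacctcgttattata
In these windows the G-box begins 246 bases before the start of TPPH, 80 before that of LHY and 43 before that of CYP83A1. The APS1 window holds no G-box and the CYP83A1 window no TATAAA. The printed promoters were picked as examples, and their share with a G-box does not stand for that of their groups. Windows that run from 250 bases before to 50 after the start were found for 17173 of the 17223 genes. CACGTG was in 8.95% of them, in 14 of the 83 windows (16.9%) of genes that fell in shoots and rose in roots, in 12.7% of those with a negative difference and in 5.97% of those with a positive one. TATAAA was in 50.5% of all windows and in 65.1% of the 83. The TCP site GGCCCA was in 20.5% of all windows and in 4.82% of the 83, and the telo-box AACCCTA in 8.06% and 1.2%. The evening element AATATCT was in 18.1% of windows with a positive difference, against 11.6% of all. Genes that fell in both tissues (190) held the W-box forms TTGACC in 23.2% and TTGACT in 33.7%, against 14.2% and 21.5% of all windows. The GCC box GCCGCC was in 1.2% of the 83 windows and 2.76% of all, the ABRE ACGTGGC (which can overlap the G-box) in 7.23% and 4.84%, the heat shock element GAANNTTC in 12% and 11.2%, and the phosphate element GNATATNC in 3.61% and 6.21%. Both strands were searched; these shares are descriptions without a test, and a match is not a bound site.

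Sulfur metabolism was among the groups in which the tissues parted. APS1, the ATP sulfurylase that starts sulfate reduction, was at 379.7, 399, 286 and 368 in tpst/psyr1,2,3 shoots, against 595, 520.4, 547 and 545 in tpst-1 shoots (CPM). In roots APS1 was at 517, 577 and 581 in tpst/psyr1,2,3 roots, against 194, 221 and 219 in tpst-1 roots. No library of the groups overlapped in either tissue, with tpst/psyr1,2,3 below tpst-1 in shoots and above it in roots. The log2 effect was -0.62 ± 0.09 in shoots and 1.40 ± 0.10 in roots, a difference of -2.03 ± 0.14, adjusted p = 9.03e-11. SULTR2;1, a sulfate transporter of vascular tissue, was at 178 ± 9.47 in tpst/psyr1,2,3 shoots and 220.0 ± 70.7 in tpst-1 shoots (SD), which did not pass, and rose in roots (1.64 ± 0.19); its difference was -1.94 ± 0.25, adjusted p = 8.33e-06. SULTR1;2, the main uptake transporter of root epidermis, fell in shoots (-1.58 ± 0.20) with a root effect of 0.21 ± 0.20 (difference -1.79 ± 0.28, adjusted p = 0.00012), and the vacuolar exporter SULTR4;2 did likewise (-1.0 ± 0.14 and 0.20 ± 0.17, difference -1.201 ± 0.22).

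ATSDI1, a sulfur-deficiency marker that represses glucosinolate synthesis, was at 8.17, 16.1, 12.6 and 15.9 in tpst/psyr1,2,3 shoots, against 105, 42.2, 34.1 and 33.8 in tpst-1 shoots, so that the shoot groups lay apart, with replicate 1 of tpst-1 highest. In roots ATSDI1 was at 43.6, 28.8 and 32.8 in tpst/psyr1,2,3 roots, against 19.96, 17.36 and 13.6 in tpst-1 roots, higher in every tpst/psyr1,2,3 library though the root effect did not pass (1.04 ± 0.35, adjusted p = 0.104). The difference was -3.08 ± 0.45, adjusted p = 5.03e-05, and -2.52, adjusted p = 2.97e-06 without that replicate. Of 29 genes on the list of sulfate assimilation and sulfur starvation 24 were tested: 1 rose and 11 fell in shoots, 4 rose and 1 fell in roots, and 8 had a negative and none a positive difference, against 5.23% and 2.43% of all genes. The members' median effect was -0.63 in shoots (-0.22 without replicate 1 of tpst-1 shoots) and 0.20 in roots, against -0.01 and 0.01 for all genes. Sulfite reductase (SIR) rose in roots (0.43 ± 0.10, adjusted p = 0.0149) with a difference that did not pass (-0.26 ± 0.14, adjusted p = 0.284).

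Aliphatic glucosinolates, the methionine-derived sulfur compounds of Brassicales, had the most negative median difference of the lists. MAM1, which catalyses methionine chain elongation, was at 199.7, 195, 136 and 151 in tpst/psyr1,2,3 shoots, against 124, 230.1, 141 and 138 in tpst-1 shoots. In roots MAM1 was at 142, 171 and 156 in tpst/psyr1,2,3 roots, against 19.7, 27.1 and 25.4 in tpst-1 roots, every tpst/psyr1,2,3 library above every tpst-1 library, while the shoot groups overlapped. The log2 effect was 0.11 ± 0.16 in shoots and 2.70 ± 0.22 in roots, a difference of -2.59 ± 0.27, adjusted p = 2.62e-07. Reads of MAM1 and its near copy MAM3 can be exchanged, and MAM3 differed the same way (0.40 ± 0.17 in shoots and 1.68 ± 0.19 in roots).

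The steps before and after MAM1 showed the same gap. BCAT4, which deaminates methionine, gave -0.08 ± 0.21 in shoots and 1.74 ± 0.24 in roots, the isomerase subunits IPMI1 and IPMI2 gave -0.15 and -0.62 in shoots and 1.37 and 1.07 in roots, and the dehydrogenase IMD1 -0.18 ± 0.12 and 1.06 ± 0.14. The keto acid transporter BAT5 gave 0.15 ± 0.18 and 1.57 ± 0.21. In the core pathway, the oxime-metabolising CYP83A1 was at 152 ± 29.2 in tpst/psyr1,2,3 and 158 ± 27.4 in tpst-1 shoots, and at 334 ± 19.6 in tpst/psyr1,2,3 and 141 ± 11.1 in tpst-1 roots (SD), a difference of -1.29 ± 0.20, adjusted p = 0.000129. The peptidase GGP1 and the conjugating transferase GSTU20 fell in shoots (-0.53 and -0.53) and rose in roots (0.69 and 1.05), as IPMI2 did. Without replicate 1 of tpst-1 shoots the shoot effects were smaller: -0.31 (adjusted p = 0.0525) for GGP1 and -0.18 (adjusted p = 0.281) for GSTU20, which no longer passed, and -0.31 (adjusted p = 0.0461) for IPMI2. MYB28, the main transcription factor of the pathway, rose in both tissues (0.72 ± 0.15 in shoots and 0.81 ± 0.19 in roots) and its difference did not pass (-0.09 ± 0.24, adjusted p = 0.877).

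Of 24 genes on the aliphatic glucosinolate list 21 were tested. In shoots 3 rose and 3 fell (median -0.04; without replicate 1 of tpst-1 shoots 3 and 1, median 0.12), in roots 18 rose and none fell (median 1.18), and the difference was negative for 15 (median -1.29, against -0.02 for all genes). Among all genes 9.15% rose and 13.0% fell in shoots, 2.01% rose in roots and 5.23% had a negative difference. Of the 25 genes on the list of indolic glucosinolates and camalexin 22 were tested, and they did not share one direction: 3 had a positive and 5 a negative difference (1 and 3 without replicate 2 of tpst-1 roots or of tpst/psyr1,2,3 roots, 1 and 4 without replicate 1 of tpst/psyr1,2,3 roots), against 2.43% and 5.23% of all genes. The methyltransferase IGMT1 had a shoot effect of -0.38 ± 0.24 and rose in roots (1.92 ± 0.31), and CYP79B3, which makes indole acetaldoxime, fell in shoots (-0.50 ± 0.13) with a root effect of 0.52 ± 0.16. PAD3, the last enzyme of camalexin synthesis, went the other way: it rose in shoots (1.01 ± 0.37) and fell in roots (-1.16 ± 0.33), a difference of 2.17 ± 0.49, adjusted p = 0.00573. Its shoot groups overlapped, and the shoot rise (adjusted p = 0.0481 by edgeR) did not pass with limma voom (adjusted p = 0.255).

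**Figure D2:**
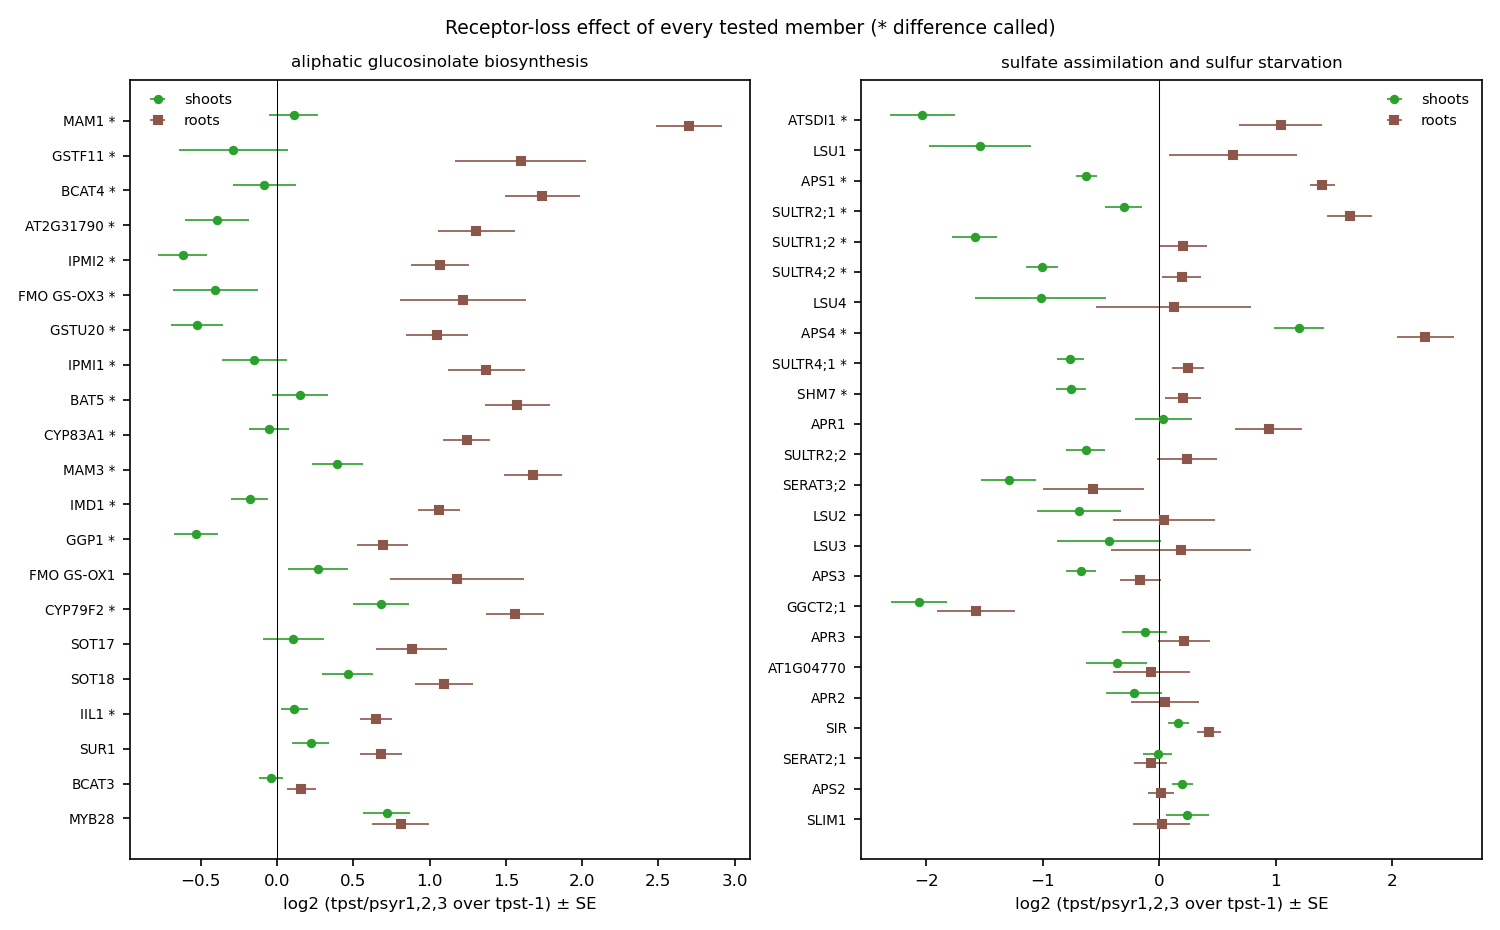
Log2 effect of receptor loss ± SE for each tested member of the aliphatic glucosinolate list and the sulfate list, in shoots (circles) and in roots (squares), from the joint edgeR fit, with an asterisk where the difference passed. In the glucosinolate panel 18 of 21 root effects passed, all above 0, while shoot effects lie on both sides of 0.

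Most water channels rose in roots, and several of them fell in shoots. PIP2A, an aquaporin of the plasma membrane, was at 473, 532, 378 and 456 in tpst/psyr1,2,3 shoots, against 1045, 820.2, 628 and 713 in tpst-1 shoots and at 895, 894 and 936 in tpst/psyr1,2,3 roots, against 461, 445 and 457 in tpst-1 roots. Neither pair of groups overlapped; the level was lower with receptor loss in shoots (-0.80 ± 0.12) and higher in roots (1.000 ± 0.13), a difference of -1.802 ± 0.18, adjusted p = 1.09e-07. PIP1A (-0.48 ± 0.09 in shoots and 1.01 ± 0.11 in roots) and the vacuolar TIP1;1 (-0.61 ± 0.12 and 0.86 ± 0.14) did the same. PIP2B had a shoot effect of -0.22 ± 0.11 and rose in roots (1.13 ± 0.13), and TIP2;2 likewise (-0.12 ± 0.13 and 1.21 ± 0.15). Of 17 PIP and TIP genes tested, 8 fell and none rose in shoots, 13 rose and none fell in roots, 13 had a negative difference, and 7 were opposite in sign. Among all genes 13.0% fell in shoots, 2.01% rose in roots and 5.23% had a negative difference. Several PIP genes are close copies, among which reads can be exchanged. PIP and TIP genes were split off by name from a list of cell expansion and water channels that was set as a whole. Their counts partly follow from that choice.

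The wall-loosening expansins on the same list, split off in the same way, leaned the other way. EXPA1, EXPA4 and EXPA6 had shoot effects of 0.41, 0.16 and 0.09 and fell in roots (-0.79, -0.75 and -0.75), and each had a positive difference; of 7 expansins tested none had a negative one. Among 11 xyloglucan endotransglucosylase genes 2 had a negative difference, with XTH16 at -0.84 ± 0.14 in shoots and 1.18 ± 0.27 in roots. The whole list of cell expansion and water channels held 37 genes, of which 35 were tested. Of these 3 differences were positive and 15 negative (median -0.59), against 2.43% and 5.23% of all genes.

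The list of circadian clock genes did not share 1 direction. LHY, a morning-expressed repressor, was at 70.3, 71.7, 77.4 and 83.2 in tpst/psyr1,2,3 shoots, against 104, 133, 125 and 129.8 in tpst-1 shoots and at 56.2, 60.9 and 58.0 in tpst/psyr1,2,3 roots, against 34.4, 45.6 and 30.8 in tpst-1 roots, apart in both tissues. It fell in shoots (-0.70 ± 0.12) and rose in roots (0.66 ± 0.15; difference -1.36 ± 0.19, adjusted p = 2.57e-05), as did RVE8 (-0.64 ± 0.12 and 0.98 ± 0.19) and RVE4 (-0.45 ± 0.11 and 0.53 ± 0.15), MYB-like activators of evening genes. CCA1 and the coactivator LNK4 fell in shoots (-0.46 and -1.06) with root effects of 0.56 and 1.25, which did not pass. All 8 genes of this morning group (LHY, CCA1, RVE4, RVE8 and LNK1 to LNK4) fell in shoots and had a negative difference, and 3 rose in roots; the difference of LNK3 was lost without replicate 3 of tpst-1 roots or replicate 1 or 2 of tpst/psyr1,2,3 roots. Of 9 pseudo-response regulator and evening genes 5 rose in shoots and none in roots, among them FKF1 (1.53 ± 0.18), PRR5 (1.16 ± 0.24) and GI (0.81 ± 0.25, and 0.50 without replicate 1 of tpst-1 shoots), and PRR3 had a positive difference (1.41 ± 0.39, adjusted p = 0.0225, lost without replicate 1 of tpst-1 roots or replicate 2 of tpst/psyr1,2,3 roots). These 2 families were set apart after their values were seen, so the counts within them partly follow from that choice. Other tested clock genes are in neither family and had no called difference. Of the 22 clock genes 21 were tested, with 1 positive and 8 negative differences (against 2.43% and 5.23% of all genes). In shoots 5 rose and 9 fell (9.15% and 13.0% of all genes), and in roots 3 rose and none fell (1 without replicate 3 of tpst-1 roots). The labels give no hour of harvest, the 22 genes summed to 428 to 475 TPM in tpst/psyr1,2,3 shoots and 249.9 to 523 TPM in tpst-1 shoots, with replicate 1 lowest, and the part of harvest time was not tested.

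**Figure D3:**
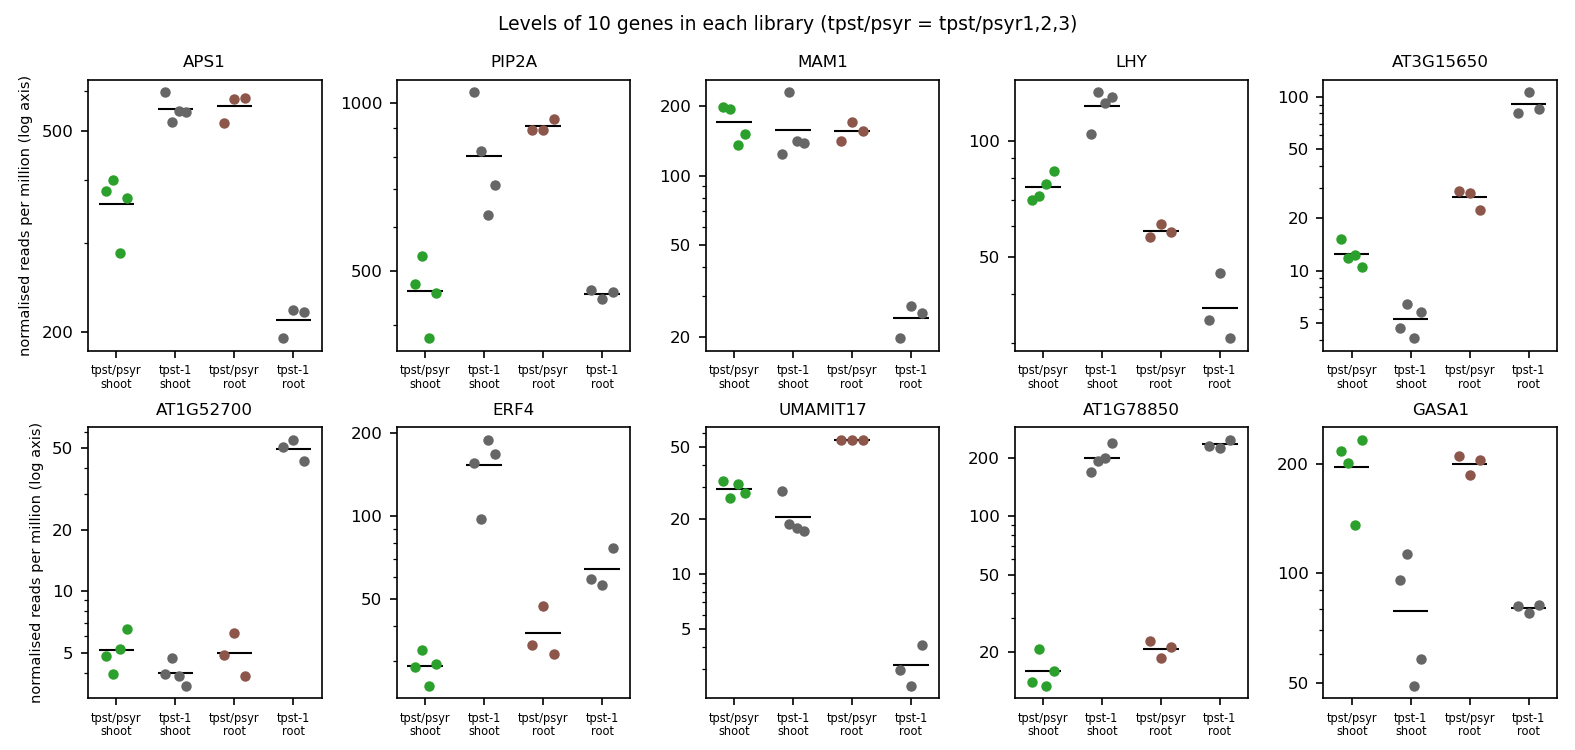
CPM (log axis) of 10 genes in each library, 1 point per library and a line at the group mean, with tpst/psyr1,2,3 left of tpst-1 in shoots and then in roots. APS1, PIP2A and LHY are lower than tpst-1 in shoots and higher in roots, AT3G15650 is the reverse, and AT1G78850 is lower in both tissues and GASA1 higher.

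TPPH, a trehalose-6-phosphate phosphatase, had one of the largest negative differences. It was at 11.2, 9.93, 13.2 and 12.2 in tpst/psyr1,2,3 shoots, against 16.2, 16.5, 13.1 and 20.8 in tpst-1 shoots, which overlapped through replicate 3 of both groups, and fell (-0.52 ± 0.17). In roots TPPH rose and was at 13.5, 17.96 and 13.4 in tpst/psyr1,2,3 roots, against 0, 0 and 0.545 in tpst-1 roots, which is 166 reads against 2, or 85.4-fold (95% counting interval 23.3 to 711, for counting error only; adjusted p of the difference = 1.33e-09). SCPL9, a serine carboxypeptidase-like gene, fell in shoots without overlap, to 6.02, 5.64, 6.18 and 6.56 in tpst/psyr1,2,3, against 17.9, 12.1, 10.13 and 11.1 in tpst-1. In roots SCPL9 had 24 reads in tpst/psyr1,2,3 and 0 in tpst-1, at least 8.23-fold higher against a floor of 3 reads over the group. UMAMIT17, an amino acid transporter of the MtN21 family, rose in both tissues, to 32.5, 26.3, 31.3 and 27.9 in tpst/psyr1,2,3 shoots, against 28.6, 18.9, 18.1 and 17.3 in tpst-1 shoots, where replicate 1 of tpst-1 overlapped. In roots UMAMIT17 was at 54.6, 54.7 and 55.0 in tpst/psyr1,2,3 roots, against 2.99, 2.44 and 4.09 in tpst-1 roots, so the rise was larger there (0.51 ± 0.16 in shoots and 4.104 ± 0.26 in roots, difference -3.60 ± 0.31, adjusted p = 1.29e-08, and -3.39, adjusted p = 2.74e-09 without replicate 1 of tpst-1 shoots).

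The trehalose phosphate phosphatase list had 10 genes and 7 tested, with 2 negative differences, TPPH and TPPA (28.6%, against 7.66% of all genes). TPPA fell in shoots (-1.17 ± 0.09) with a root effect of 0.06 ± 0.12. TPS8, a class II trehalose phosphate synthase-like gene, and BXL1, a beta-xylosidase, fell in shoots (-0.75 and -0.68) and rose in roots (0.83 and 1.495), with differences of -1.58 ± 0.26, adjusted p = 0.000205 and -2.18 ± 0.39, adjusted p = 0.000562. ASN1, the dark-induced asparagine synthetase, fell in both tissues but further in roots. It was at 48.1, 43.3, 22.7 and 31.8 in tpst/psyr1,2,3 shoots, against 27.3, 73.2, 105 and 108 in tpst-1 shoots, which overlap through replicate 1 of tpst-1, and at 0, 0.544 and 0.547 in tpst/psyr1,2,3 roots, against 17.0, 31.5 and 25.6 in tpst-1 roots, which do not. Its fitted effects were -1.10 ± 0.32 and -6.02 ± 0.88 (difference 4.92 ± 1.05, adjusted p = 0.00318). SWEET13, a sucrose exporter, had a shoot effect of -0.45 ± 0.28 and rose in roots (1.67 ± 0.34). Of 16 sugar starvation genes 13 were tested, with 1 positive difference (ASN1) and 3 negative (TPS8, BXL1 and BZIP53, the last at -0.99 ± 0.25), or 30.8%, against 7.66% of all genes. In shoots 2 rose and 8 fell (6 calls without replicate 2 of tpst-1 shoots or without replicate 1, 3 or 4 of tpst/psyr1,2,3 shoots), against 9.15% and 13.0% of all genes.

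Other genes with a negative difference came from several families, and not all of them passed in both tissues. AT4G20820, a berberine bridge enzyme-like oxidase gene, gave -2.38 ± 0.25 in shoots and 1.14 ± 0.29 in roots. AT1G62510, a lipid-transfer-like protein gene, was at 18.9 ± 3.28 in tpst/psyr1,2,3 and 34.7 ± 8.29 in tpst-1 shoots, and at 5.61 ± 0.326 in tpst/psyr1,2,3 and 0.347 ± 0.301 in tpst-1 roots (difference -4.80 ± 0.77, adjusted p = 0.000165). AT5G03995, annotated as uncharacterized, differed by -3.59 ± 0.46, adjusted p = 8.33e-06, and the non-coding AT1G31935, which rose in roots (1.37 ± 0.31), by -1.96 ± 0.39, adjusted p = 0.00171. Of 28 tau-class glutathione transferases, which conjugate glutathione to small molecules, 18 were tested and 8 had a negative difference (5 without replicate 1 of tpst-1 roots), with 1 rise and 7 falls in shoots and 2 rises in roots. Among all genes 5.23% had a negative difference, 9.15% rose and 13.0% fell in shoots, and 2.01% rose in roots. GSTU17 fell in shoots (-1.19 ± 0.17) with a root effect of 0.40 ± 0.23, GSTU26 had a shoot effect of -0.35 ± 0.24 and rose in roots (1.23 ± 0.22), and GSTU20 is also on the glucosinolate list.

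Genes that rose in shoots and fell in roots were fewer than those that did the reverse. AT3G15650, an alpha/beta-hydrolase gene, was at 15.2, 11.7, 12.4 and 10.46 in tpst/psyr1,2,3 shoots, against 4.65, 6.43, 4.07 and 5.81 in tpst-1 shoots. In roots AT3G15650 was at 28.8, 28.0 and 22.2 in tpst/psyr1,2,3 roots, against 80.1, 106 and 84.5 in tpst-1 roots. The groups lay apart in both tissues, with tpst/psyr1,2,3 above tpst-1 in shoots (1.25 ± 0.19) and below it in roots (-1.77 ± 0.20), a difference of 3.02 ± 0.28, adjusted p = 2.95e-08. AT1G52700, of the same annotated family, was at 4.84, 3.95, 5.18 and 6.56 in tpst/psyr1,2,3 shoots, against 3.94, 4.73, 3.85 and 3.45 in tpst-1 shoots, where the groups overlapped (0.37 ± 0.19, adjusted p = 0.153). In roots AT1G52700 fell without overlap, to 4.84, 6.26 and 3.83 in tpst/psyr1,2,3, against 50.6, 55.1 and 43.3 in tpst-1, and the difference was 3.68 ± 0.29, adjusted p = 1.68e-09.

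Genes that act on hormones or transport were among the 13 that rose in shoots and fell in roots. GH3.3 conjugates auxin to amino acids (0.65 ± 0.15 in shoots and -1.05 ± 0.19 in roots, difference 1.70 ± 0.24, adjusted p = 4.17e-05). IPT3 makes cytokinin precursors (0.56 ± 0.20, or 0.85 without replicate 1 of tpst-1 shoots, and -1.03 ± 0.25, difference 1.58 ± 0.32, adjusted p = 0.0019). The shoot groups of IPT3 overlapped. Its shoot rise (adjusted p = 0.0401 by edgeR) did not pass with limma voom (adjusted p = 0.0567). AT2G16660, a major facilitator superfamily transporter gene, gave 1.15 ± 0.16 and -0.93 ± 0.20 (difference 2.08 ± 0.26, adjusted p = 5.58e-06), and the chloroplast beta-amylase CT-BMY 0.47 ± 0.15 and -3.08 ± 0.59 (difference 3.55 ± 0.60, adjusted p = 0.00032). CT-BMY was at 0, 1.09 and 0.274 CPM in tpst/psyr1,2,3 roots, against 3.99, 2.71 and 5.18 in tpst-1 roots, close to the floor of these libraries.

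Other large positive differences came from falls in roots or a rise in shoots. AT2G43620, a chitinase family gene, overlapped in shoots, and in roots fell to 0.807, 1.90 and 1.64 in tpst/psyr1,2,3, against 19.5, 15.7 and 20.4 in tpst-1 (-3.66 ± 0.69, difference 4.51 ± 0.77, adjusted p = 0.000359). AT5G53486, annotated as uncharacterized, fell in shoots (-2.105 ± 0.21) and had no reads in tpst/psyr1,2,3 roots and 66 in tpst-1 roots, at least 21.4-fold lower. AT5G64110, a peroxidase gene, had a shoot effect of 0.19 ± 0.23 and fell in roots (-2.77 ± 0.61), and AT4G01390, a TRAF-like gene, fell in both, further in roots (-0.72 ± 0.24 and -2.23 ± 0.29). In shoots the glycosyl hydrolase gene AT4G16260 rose, with overlapping groups (3.61 ± 0.63), with a root effect of -0.38 ± 0.41 (difference 3.98 ± 0.77, adjusted p = 0.0013).

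Differences in the hormone lists are read against 7.66% of all genes. IAA29, an auxin response repressor, rose in shoots (1.71 ± 0.20) and differed by 3.43 ± 0.64, adjusted p = 0.000907. In roots IAA29 was at 0.269, 0 and 0.821 in tpst/psyr1,2,3 and 1.497, 1.09 and 1.09 in tpst-1. That is 4 reads against 14, close to the floor. Its root effect did not pass by edgeR (-1.72 ± 0.62, adjusted p = 0.195). Of 29 auxin response genes 22 were tested, with 2 positive differences (IAA29 and GH3.3) and 1 negative (IAA4, -0.61 ± 0.18), or 13.6%; the call of IAA4 was lost without any 1 of 9 of the 14 libraries. CKX1, a cytokinin oxidase, rose in shoots (1.33 ± 0.23; difference 2.095 ± 0.35, adjusted p = 0.000277) and the response regulator ARR4 fell in roots (-0.66 ± 0.15; difference 0.89 ± 0.20, adjusted p = 0.00475). These were the 2 differences among 13 tested of 21 cytokinin genes (15.4%), both positive (5 without replicate 4 of tpst-1 shoots, the library with root transcripts, the part of which was not tested). Of 34 abscisic acid and dehydration genes 23 were tested and 1 differed (4.35%): the proline synthesis gene P5CS1 had a shoot effect of -0.33 ± 0.14 and rose in roots (0.62 ± 0.17). Of 21 salicylic acid genes 10 were tested and none differed by edgeR, with 3 at an unadjusted p below 0.05, none by DESeq2 and 1 by limma voom.

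Of 33 stress transcription factors tested 27 fell in shoots and 14 in roots, and 10 had a negative difference, against 13.0%, 1.89% and 5.23% of all genes. ERF4, an ethylene response repressor, was at 28.4, 32.7, 24.4 and 29.1 in tpst/psyr1,2,3 shoots, against 156, 97.8, 189 and 168 in tpst-1 shoots and at 34.2, 47.3 and 31.7 in tpst/psyr1,2,3 roots, against 59.1, 56.4 and 76.6 in tpst-1 roots. No library overlapped in either tissue, and the fall was larger in shoots (-2.41 ± 0.16) than in roots (-0.76 ± 0.19; difference -1.65 ± 0.25, adjusted p = 5.88e-05). The zinc-finger gene ZAT12 was at 1.51, 1.58, 0.441 and 0 in tpst/psyr1,2,3 shoots, against 31.0, 14.4, 38.4 and 24.9 in tpst-1 shoots and at 19.1, 29.1 and 14.2 in tpst/psyr1,2,3 roots, against 53.4, 37.7 and 65.4 in tpst-1 roots. The groups lay apart in both tissues, with effects of -4.92 ± 0.44 in shoots and -1.32 ± 0.38 in roots (difference -3.60 ± 0.60, adjusted p = 0.000262).

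Other factors showed shoot falls with root effects that missed the threshold: ZAT10 gave -4.71 ± 0.48 in shoots and -1.499 ± 0.45 in roots, ERF105 -4.37 ± 0.40 and -1.15 ± 0.39, and ERF104 -3.05 ± 0.28 and -1.03 ± 0.31, with differences of -3.21, -3.22 and -2.02. Of 41 stress transcription factors 33 were tested. In shoots 27 fell (median -1.77) and in roots 14 (median -1.03), with no rise in either; 10 differences were negative and 1 positive (median -0.79). Without replicate 4 of tpst-1 shoots that median was -0.46. Without replicate 2 of tpst-1 roots or of tpst/psyr1,2,3 roots 5 negative differences and 1 positive passed. In roots 6 or 7 genes fell without replicate 3 of tpst-1 roots or replicate 1 or 3 of tpst/psyr1,2,3 roots.

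By family, the counts differed. Of 8 ERF-type genes all 8 fell in shoots and 4 in roots, and 4 had a negative difference; of 6 ZAT and AZF genes all fell in shoots, 1 fell in roots, and 4 had a negative difference. Of 14 WRKY genes 9 fell in shoots and 8 in roots, with 1 difference each way. WRKY22 (-2.67 ± 0.24 and -3.21 ± 0.42), WRKY40 (-4.22 ± 0.52 and -3.11 ± 0.63) and WRKY46 (-2.12 ± 0.47 and -2.19 ± 0.54) fell in both tissues. WRKY53, a senescence regulator, was the positive one: it had a shoot effect of -0.62 ± 0.27 and fell in roots (-2.59 ± 0.45) (difference 1.98 ± 0.54, adjusted p = 0.0212, lost without replicate 3 of tpst-1 roots or replicate 1 or 3 of tpst/psyr1,2,3 roots). These families were set apart by name after their values were seen.

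**Figure D4:**
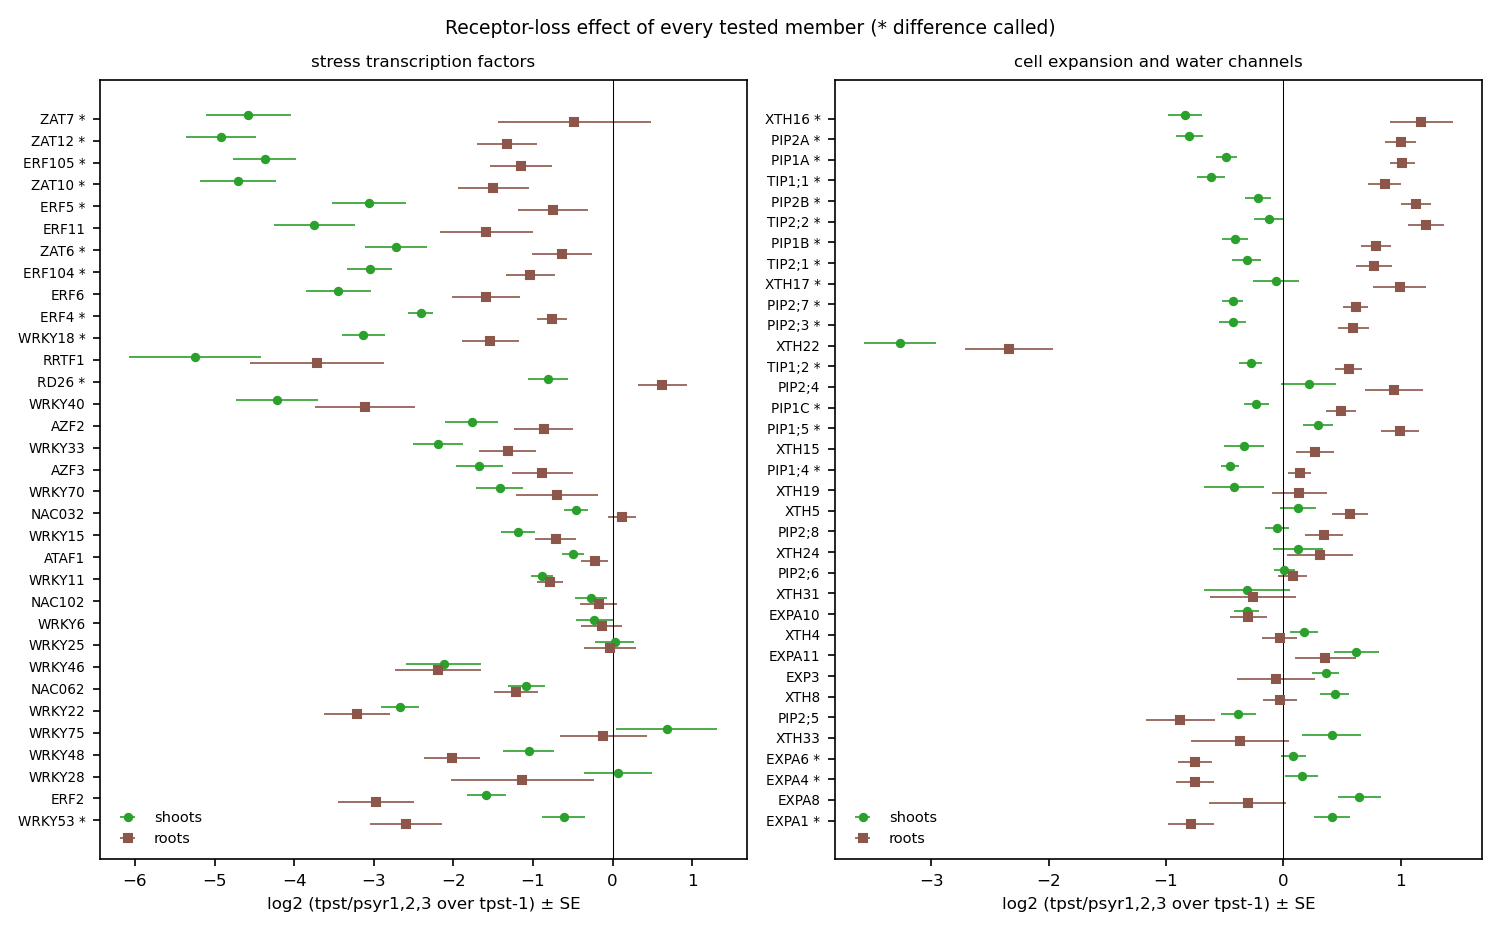
Log2 effect of receptor loss ± SE for each tested member of the stress transcription factor list and of the list of cell expansion and water channels, in shoots (circles) and in roots (squares), with an asterisk where the difference passed. No stress factor rose in either tissue, and 13 of 17 PIP and TIP genes rose in roots.

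Other negative differences came from larger falls in shoots. CAF1a, a deadenylase that is induced by wounding, was at 7.68 ± 3.13 in tpst/psyr1,2,3 and 188 ± 79.1 in tpst-1 shoots and at 41.1 ± 20.6 in tpst/psyr1,2,3 and 107 ± 23.4 in tpst-1 roots (difference -3.23 ± 0.52, adjusted p = 0.00016). AT4G27657, annotated as uncharacterized, gave -5.34 ± 0.45 in shoots and -1.43 ± 0.48 in roots (difference -3.92 ± 0.70, adjusted p = 0.000579). AT1G22470, also uncharacterized, had 2 reads in tpst/psyr1,2,3 shoots and 88 in tpst-1 shoots, a ratio of 0.0253 (95% counting interval 0.00302 to 0.0943), and its root groups overlapped. The kinase kinase MKK9 fell in both (-2.24 ± 0.18 and -0.96 ± 0.23, difference -1.28 ± 0.29, adjusted p = 0.0052). It and CML38 (-2.41 ± 0.72, lost without any 1 of 6 libraries) were the 2 negative differences among 16 tested of 25 pattern-triggered immunity genes (12.5%, against 7.66% of all genes). On this list 1 difference passed without any of replicates 1 and 2 of tpst-1 roots or of tpst/psyr1,2,3 roots, or replicate 1 or 3 of tpst/psyr1,2,3 shoots. The heat shock factor HSFB2A fell in shoots (-2.17 ± 0.22) with a root effect of -0.59 ± 0.24. It was the 1 difference among 14 tested of 23 heat shock and folding genes, or 7.14%, near the 7.66% of all genes.

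A set of genes passed in both tissues with the same sign. They were picked for an adjusted p of at least 0.5 for the difference by edgeR. That their differences did not pass therefore follows from the choice. AT1G78850, a mannose-binding lectin gene, was at 13.9, 20.5, 13.3 and 15.9 in tpst/psyr1,2,3 shoots, against 170.4, 194, 201 and 239 in tpst-1 shoots. In roots AT1G78850 was at 22.6, 18.5 and 21.1 in tpst/psyr1,2,3 roots, against 232, 226 and 249 in tpst-1 roots, again with no overlap. The effects were -3.66 ± 0.16 and -3.51 ± 0.19, and their difference did not pass (-0.15 ± 0.24, adjusted p = 0.777), which does not show that they are equal. The stress factors ORA47 (-4.09 ± 0.42 and -3.62 ± 0.59), RRTF1 (-5.24 ± 0.83 and -3.71 ± 0.84) and ERF13 (-3.36 ± 0.52 and -3.23 ± 0.60) fell in both tissues, with wider errors. Adjusted p for their differences was 0.796, 0.553 and 0.945. RRTF1 was at 4.47, 2.18, 9.91 and 51.7 in tpst-1 shoots, highest in replicate 4. Its shoot fall did not pass with limma voom (adjusted p = 0.0635). AT1G07175, annotated as an alternative NAD(P)H dehydrogenase, had 0 reads in tpst/psyr1,2,3 shoots and 72 in tpst-1 shoots (at least 21.5-fold lower), and 1 read in tpst/psyr1,2,3 roots and 60 in tpst-1 roots, a ratio of 0.0171 (95% counting interval 0.000427 to 0.0992).

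Rises picked by the same rule are given next. GASA1, a gibberellin-regulated peptide gene, was at 217, 200.4, 136 and 233 in tpst/psyr1,2,3 shoots, against 96.0, 113, 49.2 and 58.2 in tpst-1 shoots and at 209.7, 186 and 204 in tpst/psyr1,2,3 roots, against 81.3, 77.9 and 82.1 in tpst-1 roots, with no overlap in either tissue. Its effects were 1.31 ± 0.18 in shoots and 1.31 ± 0.21 in roots (difference 0.00 ± 0.29, adjusted p = 1). FRD3, a citrate exporter for iron transport, gave 1.19 ± 0.25 and 1.26 ± 0.26. The wall protein gene PELPK1 gave 1.55 ± 0.37 and 1.17 ± 0.30, and the formate dehydrogenase FDH 0.90 ± 0.19 and 1.22 ± 0.28. By the choice, none of these differences passed, at adjusted p of 0.936, 0.703 and 0.645.

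Of 32 jasmonate genes 21 were tested: 16 fell in shoots (median -1.40; 11 fell, with a median of -0.65, without replicate 4 of tpst-1 shoots) and 1 in roots (median -0.65), and 3 had a difference, all negative (VSP1, AOC2 and AOC3). Among all genes 13.0% fell in shoots, 1.89% fell in roots and 5.23% had a negative difference. The difference of AOC3, -2.54 ± 0.75, was lost without any 1 of 8 of the 14 libraries, and was -1.26 without replicate 4 of tpst-1 shoots. The root count was 0 without replicate 1 or 3 of tpst-1 roots or any one library of tpst/psyr1,2,3 roots, and 4, 3 and 7 without replicates 1, 2 and 4 of tpst-1 shoots. VSP1, a wound-induced phosphatase-like protein, was at 1.97 ± 1.15 in tpst/psyr1,2,3 and 9.99 ± 7.78 in tpst-1 shoots, and at 22 ± 0.184 in tpst/psyr1,2,3 and 15.98 ± 3.04 in tpst-1 roots. Its difference was -2.80 ± 0.61, adjusted p = 0.00402, and -2.09, adjusted p = 0.00558 without replicate 1 of tpst-1 shoots, which held 21.6 CPM. AOC2, an allene oxide cyclase of jasmonate synthesis, fell in shoots (-1.11 ± 0.17) with a root effect of 0.57 ± 0.34 (difference -1.68 ± 0.37, adjusted p = 0.00474). VSP2 fell in both (-2.48 ± 0.32 and -2.78 ± 0.74). The repressor genes JAZ1 (-3.30 ± 0.42 and -1.48 ± 0.45) and JAZ5 (-4.09 ± 0.80 and -2.24 ± 1.03) and the lipoxygenase LOX4 (-3.48 ± 0.75 and -3.57 ± 1.36) fell in shoots, and their root effects and differences did not pass. Replicate 4 of tpst-1 shoots stood apart for JAZ1, JAZ5 and LOX4, at 181, 71.6 and 142 CPM.

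Of 9 flavonoid genes tested 6 fell in shoots and none passed in roots, against 13.0% and 3.90% of all genes. TT4, the chalcone synthase that opens the pathway, was at 53.3, 56.3, 53.8 and 63.9 in tpst/psyr1,2,3 shoots, against 262, 169, 118 and 117 in tpst-1 shoots. In roots TT4 was at 955, 889 and 934 in tpst/psyr1,2,3 roots, against 934, 907 and 822 in tpst-1 roots, where the groups overlapped. The effects were -1.55 ± 0.17 and 0.06 ± 0.19, a difference of -1.61 ± 0.26, adjusted p = 0.00017. F3H, which makes dihydroflavonols, gave -1.75 ± 0.25 and 0.08 ± 0.26 (-1.83 ± 0.36, adjusted p = 0.00176 for the difference, and -1.24, adjusted p = 9.71e-05 without replicate 1 of tpst-1 shoots), and the hydroxylase TT7 -0.95 ± 0.23 and 0.33 ± 0.21. Of 24 flavonoid genes 9 were tested: 6 fell in shoots, and none passed in roots by edgeR (0 at an unadjusted p below 0.05, 0 by DESeq2 and 1 by limma voom), and 4 had a negative difference, against 5.23% of all genes.

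Among the nutrient lists, differences passed for 15.8% of iron deficiency, 16.7% of phosphate starvation and 38.9% of nitrate genes tested, against 7.66% of all genes. BHLH39, a transcription factor of the iron deficiency response, was at 1.94, 0, 0.662 and 0 in tpst/psyr1,2,3 shoots, against 13.5, 16.8, 24.7 and 6.14 in tpst-1 shoots and at 7.00, 7.07 and 7.11 in tpst/psyr1,2,3 roots, against 12.7, 13.8 and 11.99 in tpst-1 roots. The groups lay apart in both tissues, the fall passed in shoots (-4.49 ± 0.58) and not in roots (-0.86 ± 0.58), and the difference was -3.63 ± 0.84, adjusted p = 0.0077, though DESeq2 did not call it. BHLH38 (-4.73 ± 0.60 and -1.87 ± 0.68) and BHLH101 (-4.22 ± 0.58 and -0.27 ± 1.41) also fell in shoots without a called difference. Of 30 iron deficiency genes 19 were tested, with 12 falls and 1 rise in shoots, 2 falls in roots (1 without replicate 3 of tpst-1 roots or replicate 2 or 3 of tpst/psyr1,2,3 roots), and 2 negative differences (BHLH39 and BTS) and 1 positive (AHA2). Without replicate 3 of tpst-1 roots or replicate 2 of tpst/psyr1,2,3 roots 1 negative difference passed and no positive one. The difference of BTS, -0.90 ± 0.27, was lost without any 1 of 9 of the 14 libraries. Of 10 iron storage genes 8 were tested and 1, VTL2, differed (1.40 ± 0.41, lost without any 1 of 6 libraries), or 12.5%, against 7.66% of all genes.

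Among 25 nitrate genes, 18 of them tested, 3 differences were positive and 4 negative (1 and 2 without replicate 3 of tpst/psyr1,2,3 roots). Nitrite reductase NIR1 rose in shoots (0.70 ± 0.13; difference 0.87 ± 0.20, adjusted p = 0.00669), the repressor LBD38 fell there (-0.84 ± 0.10; difference -1.09 ± 0.15, adjusted p = 3.6e-05), and the nitrate transceptor NPF6.3 rose in roots (0.83 ± 0.15; difference -0.77 ± 0.20, adjusted p = 0.0148). Among 31 phosphate starvation genes, 24 of them tested, 4 differences were negative and none positive. The phosphate exporter PHO1 (-0.73 ± 0.16 in shoots and 0.18 ± 0.17 in roots) and the non-coding AT5G03545, also known as At4, a riboregulator of phosphate distribution (-1.27 ± 0.23 and 0.46 ± 0.24), fell in shoots and did not pass in roots.

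Of 37 nuclear photosynthesis genes tested 19 fell in shoots and 8 rose in roots (against 13.0% and 2.01% of all genes), at very unequal levels. LHCA4, an antenna protein of photosystem I, was at 5639 ± 307 in tpst/psyr1,2,3 and 8080.2 ± 1405 in tpst-1 shoots. In roots LHCA4 was at 19.9, 29.9 and 20.25 in tpst/psyr1,2,3 roots, against 13.7, 11.4 and 13.6 in tpst-1 roots. RCA, which activates Rubisco, was at 5849 ± 310.2 in tpst/psyr1,2,3 and 8593 ± 2366 in tpst-1 shoots, and at 38.3 ± 12.8 in tpst/psyr1,2,3 and 23.2 ± 4.13 in tpst-1 roots. Both fell in shoots and rose in roots, with differences of -1.37 ± 0.22, adjusted p = 0.00017 and -1.28 ± 0.26, adjusted p = 0.0021. PSBR and PSBO1 of photosystem II and the light-harvesting-like OHP differed by -1.33, -1.03 and -3.19.

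Of 40 photosynthesis genes 37 were tested: 19 fell in shoots (median -0.41; 15 fell, with a median of -0.25, without replicate 1 of tpst-1 shoots), 8 rose in roots (median 0.65), and 19 had a negative difference (median -1.03), against 5.23% of all genes. In roots the list summed to 486, 736 and 493 TPM in tpst/psyr1,2,3 and to 341, 335 and 415 TPM in tpst-1, so replicate 2 of tpst/psyr1,2,3 was highest. Without that replicate 7 differences passed and 1 root rise (root median 0.39), and without replicate 1 of tpst-1 roots 12 and 2. Without replicate 2 of tpst-1 roots 1 root gene rose and without replicate 3 of tpst-1 roots 5, and without replicate 1 of tpst/psyr1,2,3 shoots 11 genes fell in shoots. Chloroplast-encoded genes took 1.35 to 1.87% of reads in tpst/psyr1,2,3 shoots and 2.3 to 4.42% in tpst-1 shoots, and ENSRNA loci took 0.262 to 0.447% in tpst/psyr1,2,3 shoots and 0.736 to 1.64% in tpst-1 shoots; their part in the shoot effects was not tested. In bulk tissue, more green cells in a root sample and more RNA per cell cannot be told apart, and the part of carried-over shoot tissue was not tested.

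Of 17 low oxygen genes 14 were tested and 3 differed (21.4%, against 7.66% of all genes), with 4 rises and 1 fall in shoots, 2 falls in roots (1 without replicate 2 or 3 of tpst-1 roots and 0 without replicate 1 of tpst-1 roots or replicate 1 or 3 of tpst/psyr1,2,3 roots), and 2 positive differences (HB1 and ADH1) and 1 negative (HRE1). ADH1 differed by 1.87 ± 0.54, lost without any 1 of 5 libraries, and HRE1 by -1.34 ± 0.36, lost without replicate 2 or 3 of tpst-1 roots or replicate 3 of tpst/psyr1,2,3 roots. The haemoglobin HB1 had a shoot effect of 0.35 ± 0.34 and fell in roots (-1.65 ± 0.40), and its difference (2.00 ± 0.52, adjusted p = 0.0168) was lost without replicate 1 of tpst/psyr1,2,3 roots; without replicate 2 or 3 of tpst-1 roots or replicate 1 or 3 of tpst/psyr1,2,3 roots 1 difference of the list passed. Of 10 cold regulon genes 8 were tested and 2 differed (25.0%): COR27 rose in shoots (1.17 ± 0.19; difference 1.94 ± 0.46, adjusted p = 0.00841) and COR413-PM1 rose in roots (0.80 ± 0.18; difference -1.08 ± 0.24, adjusted p = 0.00471).

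Of 38 cell division genes 37 were tested, with 3 positive differences (MCM3, MCM7 and the kinesin HIK) and 1 negative, or 10.8%, against 7.66% of all genes. The negative one was CYCD1;1, a G1 cyclin that rose in roots (1.01 ± 0.23; difference -1.10 ± 0.27, adjusted p = 0.00915). MCM3 differed by 0.75 ± 0.21 and HIK by 0.64 ± 0.18. The positive ones were lost without replicate 2 of tpst-1 roots, and 1 of them stayed without replicate 1, 2 or 3 of tpst/psyr1,2,3 roots or replicate 3 of tpst/psyr1,2,3 shoots. Of 15 reference genes none differed by edgeR, with 2 at an unadjusted p below 0.05, none by DESeq2 and 1 by limma voom. Of 22 endodermis genes 7 were tested and KCS20 differed (-0.66 ± 0.18, lost without any 1 of 5 libraries), or 14.3%, against 7.66% of all genes. The 22 summed to 1025 to 1056 TPM in tpst/psyr1,2,3 roots and 604 to 694 TPM in tpst-1 roots. Of 20 root hair genes 2 were tested and neither differed, also at an unadjusted p below 0.05 and by the other tools, and none of the 7 root triterpene genes passed the expression filter in both tissues. The triterpene genes summed to 728 to 787 TPM in tpst/psyr1,2,3 roots and 414 to 444 TPM in tpst-1 roots. The part of root cell types in the root effects was not tested.

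**Figure D5:**
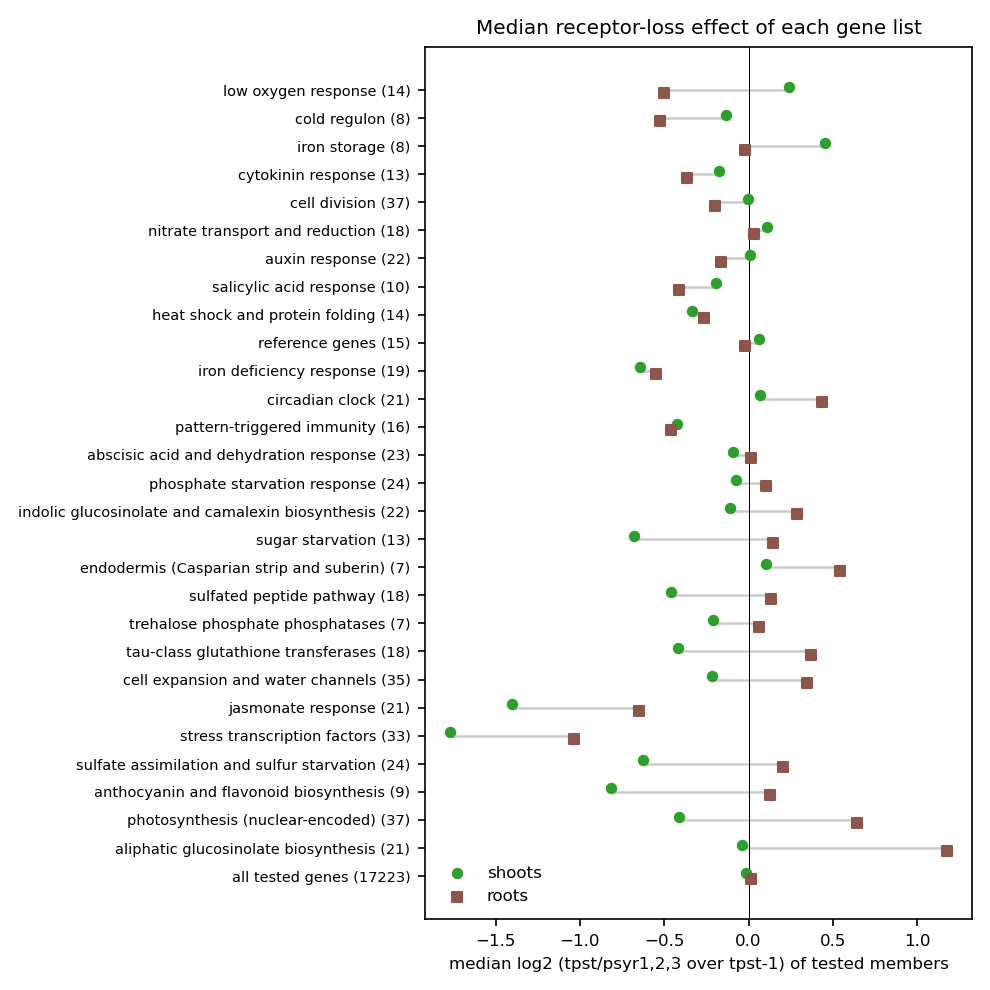
Median log2 effect of receptor loss in shoots and in roots for each gene list, over its tested members, beside the median of all 17223 genes. Photosynthesis genes have a root median above 0 and a shoot median below it, aliphatic glucosinolate genes a root median above 0 and a shoot median near it, and stress transcription factors lie below 0 in both tissues.

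Of 34 genes listed for the sulfated peptide pathway 18 were tested and 3 differed (16.7%, against 7.66% of all genes): 2 rose and 8 fell in shoots (4 fell without replicate 4 of tpst/psyr1,2,3 shoots), 3 rose and 2 fell in roots (1 and 2 with any one root library left out), and 1 difference was positive and 2 negative. PSY1R, a receptor kinase related to the PSK receptors, fell in shoots (-0.60 ± 0.12) with a root effect of 0.26 ± 0.14 (difference -0.86 ± 0.19, adjusted p = 0.00382). The PSK receptor PSKR2 had a shoot effect of 0.13 ± 0.10 and fell in roots (-0.60 ± 0.13) (difference 0.73 ± 0.17, adjusted p = 0.0058). The other negative one was AT2G29995, a PSY-type peptide gene by the list, whose call was lost without 11 of the 14 libraries. Among ligands PSY1 (-2.01 ± 0.22 in shoots and -1.16 ± 0.36 in roots) and PSK4 (-1.34 ± 0.35 and 0.28 ± 0.53) fell in shoots, and their differences did not pass.

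Genes that passed the expression filter in 1 tissue were left out of the 17223 and are given by their effect there. Of 2458 genes that passed the expression filter in shoots alone 60 rose (2.44%) and 418 fell (17.0%), and of 2349 in roots alone 38 rose (1.62%) and 38 fell (1.62%). In roots MRN1, the marneral synthase of a triterpene cluster, was at 56.6 ± 4.30 in tpst/psyr1,2,3 and 3.48 ± 1.34 in tpst-1 (4.01 ± 0.30, adjusted p = 7.5e-07). The organic cation transporter OCT1 was at 12.04 ± 0.247 in tpst/psyr1,2,3 and 1.07 ± 0.734 in tpst-1 roots. Root falls included CWINV5, a cell wall invertase (0.361 ± 0.153 in tpst/psyr1,2,3 and 14.6 ± 0.907 in tpst-1), the peroxidase gene AT1G49570 (3.26 ± 1.52 in tpst/psyr1,2,3 and 50.1 ± 5.69 in tpst-1) and the acyltransferase GPAT1 (0.815 ± 0.00680 in tpst/psyr1,2,3 and 10.53 ± 1.05 in tpst-1). In none of these did the root groups overlap, which partly follows from picking the largest called effects. CWINV5, GPAT1, AT2G15555 and MYB2 passed the root filter through tpst-1 roots alone. CWINV5 and GPAT1 held 4 and 9 reads over the tpst/psyr1,2,3 root libraries, close to the floor, so their SD there says little about precision. AT2G15555 had 0 reads in tpst/psyr1,2,3 roots and 64 in tpst-1 roots (at least 20.7-fold lower), and the transcription factor gene MYB2 had 2 in tpst/psyr1,2,3 roots and 57 in tpst-1 roots, a ratio of 0.0361 (95% counting interval 0.00427 to 0.136). In shoots the CCT motif gene AT1G07050 was at 21.4 ± 6.57 in tpst/psyr1,2,3 and 8.03 ± 1.35 in tpst-1 (1.41 ± 0.21, adjusted p = 2.42e-05). The long non-coding AT3G05945 was at 0.499 ± 0.282 in tpst/psyr1,2,3 and 12.3 ± 5.43 in tpst-1 shoots (-4.58 ± 0.40, adjusted p = 4.46e-08).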

How the data were processed

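Per the labels' protocols, total RNA (1 µg) was extracted with an RNeasy kit and made into libraries with TruSeq v2 (MiniSeq) or NEBNext Ultra II (NextSeq550) kits; the labels do not say which samples used which. Per the file headers each deposited file gives TPM and read numbers for 34262 genes. The read numbers are the authors' expected counts, with fractions, and were rounded here. The submitters' processing notes name the build TAIR10, and the program that made the values is not known here. RefSeq TAIR10.1 gave symbols (32548 loci matched) and promoters. PSYR1, PSYR2 and PSYR3 are AT1G17230, AT2G33170 and AT5G63930, and their names, like some list symbols, come from knowledge of these genes and not from the files.

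Counts were tested with edgeR 4.0.16 (TMM, quasi-likelihood, trended dispersion; R 4.3.3) in 1 fit of the 8 root and shoot groups (29 libraries). A gene was tested if its TPM reached 1 in 3 of the 6 root and 4 of the 8 shoot libraries compared. P-values were adjusted by Benjamini and Hochberg over all genes of a comparison, and a gene passed below 0.05. Effects are log2 ± SE and levels mean ± SD. The SE was taken as the size of the effect divided by the square root of the F value of the edgeR test. It is not a fitted standard error and is rough at low counts. For a gene at 0 reads in a group, 3 reads over the group set the bound; counting intervals are exact, at 95%, and cover counting error only. The lower depth of the root libraries limits the precision of weakly expressed genes there.

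The comparison and the 30 gene lists were chosen with earlier results of these data known, and no list was tested as a set. Named genes were TPST and the receptors, and the largest differences each way with at least 5 TPM in a group. The largest of each pattern and up to 4 called members per list were also named. Genes given as shared passed in both tissues with the same sign and had an adjusted p of at least 0.5 for the difference. Genes of a single tissue were chosen from the largest called effects each way. Genes whose call held with each library left out were preferred, and further list members were named after their values were seen. DESeq2 1.42.0, limma 3.58.1 (on TPM and as voom), other scalings and filters, the replicate number as a block and each library left out were tried as alternatives. The edgeR test was also run on simulated counts that had the same spread in both tissues. Such counts cannot check a spread that differs between tissues, and no result here rests on them. Figures used Python 3.11.15 and matplotlib 3.10.9.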

Additional observations from a re-analysis of the deposited data

Results flagged for a closer look

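Results are listed here because the effect of receptor loss differed between shoots and roots by the interaction test, as it did for 1319 genes, or because 1 library stood far from the other 3 of its group. Of the genes described, these had a difference (log2, shoots minus roots). The most negative values were -4.80 for AT1G62510, -3.92 for AT4G27657, -3.63 for BHLH39, -3.60 for UMAMIT17, -3.60 for ZAT12, -3.59 for AT5G03995, -3.52 for AT4G20820, -3.23 for CAF1a, -3.22 for ERF105, -3.21 for ZAT10, -3.19 for OHP and -3.08 for ATSDI1. Next came -2.80 for VSP1, -2.59 for MAM1, -2.54 for AOC3, -2.41 for CML38, -2.31 for LNK4, -2.30 for IGMT1, -2.18 for BXL1, -2.12 for SWEET13, -2.03 for APS1, -2.02 for ERF104 and -2.02 for XTH16. Further values were -1.96 for AT1G31935, -1.94 for SULTR2;1, -1.83 for F3H, -1.82 for BCAT4, -1.802 for PIP2A, -1.79 for SULTR1;2, -1.73 for AT5G03545, -1.69 for IPMI2, -1.68 for AOC2, -1.65 for ERF4, -1.61 for RVE8, -1.61 for TT4, -1.59 for GSTU17, -1.58 for GSTU26, -1.58 for HSFB2A, -1.58 for TPS8, -1.57 for GSTU20 and -1.52 for IPMI1. Smaller ones were -1.499 for PIP1A, -1.48 for TIP1;1, -1.45 for LNK3, -1.42 for BAT5, -1.37 for LHCA4, -1.36 for LHY, -1.34 for PIP2B, -1.34 for HRE1, -1.33 for TIP2;2, -1.33 for PSBR, -1.31 for AT2G29995, -1.29 for CYP83A1, -1.29 for MAM3, -1.28 for TT7, -1.28 for RCA, -1.28 for MKK9, -1.24 for IMD1, -1.23 for TPPA, -1.23 for GGP1 and -1.201 for SULTR4;2. The smallest were -1.19 for LNK2, -1.10 for CYCD1;1, -1.09 for LBD38, -1.08 for COR413-PM1, -1.03 for PSBO1, -1.03 for CYP79B3, -1.02 for CCA1, -1.0 for LNK1, -0.99 for BZIP53, -0.97 for RVE4, -0.95 for P5CS1, -0.91 for PHO1, -0.90 for BTS, -0.86 for PSY1R, -0.77 for NPF6.3, -0.66 for KCS20 and -0.61 for IAA4. On the positive side the values were 4.92 for ASN1, 4.51 for AT2G43620, 3.98 for AT4G16260, 3.68 for AT1G52700, 3.55 for CT-BMY, 3.43 for IAA29 and 3.02 for AT3G15650. Lower ones were 2.96 for AT5G64110, 2.17 for PAD3, 2.095 for CKX1, 2.08 for AT2G16660, 2.00 for HB1, 1.98 for WRKY53, 1.94 for COR27, 1.87 for ADH1, 1.70 for GH3.3, 1.58 for IPT3 and 1.51 for AT4G01390. The lowest were 1.41 for PRR3, 1.40 for VTL2, 1.203 for EXPA1, 0.91 for EXPA4, 0.89 for ARR4, 0.87 for NIR1, 0.83 for EXPA6, 0.75 for MCM3, 0.73 for PSKR2, 0.71 for AHA2, 0.64 for HIK and 0.64 for MCM7. Genes with 3 or fewer reads in a group are given by the adjusted p of the difference from edgeR instead: TPPH (1.33e-09), SCPL9 (5.1e-05), AT5G53486 (0.00369) and AT1G22470 (0.000481).

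A gap wider than Dixon's 95% limit was found in 20 of 280 groups of 4 shoot libraries, and chance gives about 1 in 20. Replicate 1 of tpst/psyr1,2,3 shoots stood apart at 0.215 for AT1G22470 (CPM). Replicate 2 of tpst/psyr1,2,3 shoots stood apart at 10.7 for IGMT1 and 50.1 for IAA4 (CPM). Replicate 3 of tpst/psyr1,2,3 shoots stood apart at 50.9 for XTH16 (CPM). Replicate 1 of tpst-1 shoots stood apart at 15.6 for PSYR2, 105 for ATSDI1, 28.6 for UMAMIT17, 77.0 for F3H, 21.6 for VSP1, 653 for GSTU20 and 213 for VSP2 (CPM). Replicate 2 of tpst-1 shoots stood apart at 230.1 for MAM1, 40.7 for ZAT10, 10.7 for FRD3 and 3.03 for AT5G03995 (CPM). Replicate 4 of tpst-1 shoots stood apart at 51.7 for RRTF1, 181 for JAZ1, 71.6 for JAZ5, 142 for LOX4 and 45.4 for AOC3 (CPM). In tpst-1 shoots, replicate 1 also had a median shift of -0.627 log2 units in TPM from the others, and replicate 4 the highest sums of root hair genes (27.8 TPM) and root triterpene genes (5.27 TPM).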

How the results depend on the processing

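The number of genes with a difference (1319) was 635 in a fit of the 4 groups alone, 2065 with limma voom and 1 weight per tissue, and 2092, 2303 and 2817 with limma on TPM with pseudocounts of 0.1, 1 and 5. With each library left out in turn it was 813 to 1633. The shoot count (3816) was 2054 in the 4 groups alone, 7782, 7915 and 7909 with limma on TPM with pseudocounts of 0.1, 1 and 5, and 2900 to 4741 with a library left out. The root count (672) was 389 in the 4 groups alone, 2284 with limma voom, 1127 with limma on TMM-scaled TPM (added after the data were seen), 1248 with limma on TPM at a pseudocount of 5, and 384 to 1062 with a library left out: 384 and 394 without replicates 3 and 1 of tpst/psyr1,2,3 roots, 391 and 442 without replicates 3 and 1 of tpst-1 roots, and 1062 without replicate 1 of tpst-1 shoots. The cause of these changes was not tested, except that rescaled TPM gave 1591 differences with a median of 0.00404 over all genes. DESeq2 gave 1455, of which 1264 were shared. Genotypes share replicate numbers within a tissue; deviations of same-numbered libraries from their group means correlated at 0.028 to 0.127 in shoots and 0.0539 to 0.098 in roots, so the numbers were not taken as pairs, though in roots each library correlated best with its own number. With the replicate block 1097 genes passed, 1073 of them shared. Of 112 described genes with a difference 95 kept the call with each library left out and 73 under every setting, and none changed sign. Genes whose call held were preferred for description, so these counts do not stand for all genes. Of all 1319 genes with a difference, 796 kept the call without replicate 2 of tpst-1 roots and 626 in the 4 groups alone. Depth limits weak genes in roots.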
